A study of Homo sapiens and Mus musculus with 8 samples.

Results

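The genes described here are 33 human heat shock chaperones, cochaperones and heat shock factors that work in the cytosol, the nucleus or the mitochondria, and not in the endoplasmic reticulum. They were taken from a table of read counts for 60483 genes by matching gene identifiers to a fixed list of symbols. The rule uses no measured value, but the list was drawn up with earlier results of these data known. All 33 were found. The study used the human colorectal cancer lines KM12 and LS174T, each grown in culture and as a cell line-derived xenograft (CDX), a tumor that human cells form in a mouse. The KM12 libraries were the GNAS knockout xenograft, the parental xenograft, the knockout culture and the parental culture, with GNAS R201H as the parental genotype. The LS174T libraries were all labelled GNAS R201H and were the Dox (+) xenograft, the Dox (-) xenograft, the Dox (+) culture and the Dox (-) culture. GNAS encodes the stimulatory G protein alpha subunit, and R201H is a mutation that keeps it active. The labels do not say what Dox induces, whether the knockout is 1 clone, or how the mice were treated, and they name the mouse as the organism of the 4 xenograft libraries. Each of the 8 groups had 1 library, so no pair of libraries has a replicate check. The title asks about dependence of such tumors on the mutant gene.

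Heat shock proteins hold unfolded proteins, help them fold and send those that cannot fold to degradation. HSP70 chaperones bind exposed hydrophobic stretches, HSP40 (DNAJ) proteins bring them their clients and stimulate their ATPase, HSP110 proteins act as their nucleotide exchange factors, and HSP90 chaperones finish the folding of kinases and hormone receptors with the help of cochaperones. Under proteotoxic stress the factor HSF1 forms trimers that bind inverted repeats of the bases GAA, called heat shock elements, in front of the inducible genes, while other members are made at high levels without stress.

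GNAS transcript was lower in knockout than in parental KM12 and higher in Dox (+) than in Dox (-) LS174T. Levels are read counts scaled to library size (CPM, with TMM factors). It stood at 901 CPM in knockout and 1387 CPM in parental KM12 xenografts, and at 297 CPM in knockout and 1117 CPM in parental KM12 cultures. In LS174T it stood at 690 CPM in the Dox (+) and 584 CPM in the Dox (-) xenograft, and at 1742 CPM in the Dox (+) and 690 CPM in the Dox (-) culture. The raw counts of the LS174T xenografts were 14256 in Dox (+) and 14394 in Dox (-), so their difference rests on the scaling. The xenograft pairs were thus separated less in GNAS than the culture pairs, and the knockout xenograft held 3.03 times the level of the knockout culture (95% counting interval 2.96 to 3.10). An effect of Dox itself cannot be told apart from that of GNAS in LS174T. KM12 parental and LS174T Dox (+) are called the states with active GNAS below. This is a name only, since the Dox (-) libraries are also labelled GNAS R201H and GNAS activity was not measured. Total counts ran from 15924846 to 23124811 in the xenografts and from 31868711 to 37735085 in the cultures. Intervals on a ratio cover counting error only.

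The KM12 parental xenograft stood apart before any chaperone was read. Of 10 fibroblast markers, COL3A1 stood at 220 CPM there and at most 1.12 CPM in the other libraries. COL1A1 stood at 29.2 CPM and LUM at 10.0 CPM there. The other markers did not stand out. COL1A2 was at 3.72 CPM there and 3.44 CPM in the knockout xenograft, and PDGFRB was at 0.458 CPM, its lowest library. PDGFRA, FAP and FBLN1 were at 0, THY1 was at 0.057 CPM and DCN was at 0.23 CPM. The 10 markers summed to 263 CPM in that library and to between 3.65 and 12.8 CPM in the other 7. The intestinal factor CDX1 stood at 74.1 CPM in the knockout xenograft against 10.9 CPM in the parental one, and the intestinal cadherin CDH17 at 331 CPM in the knockout xenograft against 48.5 CPM in the parental one. Of the 10 colorectal epithelium markers, 8 were higher in the knockout than in the parental KM12 xenograft and 2 were lower. The 2 were KRT18, at 1467 against 1883 CPM, and EPCAM, at 516 against 571 CPM. All 10 markers were above 1 CPM in every library. Endothelial, leukocyte, and red blood cell and muscle markers summed to at most 4.60, 10.7 and 2.48 CPM in any library. Genes of the hypoxia response summed to 3505 CPM in the Dox (+) and 6552 CPM in the Dox (-) LS174T xenograft, and to between 487 and 1249 CPM in the other 6 libraries. Whether these differences have a part in the chaperone values was not tested, and results are given with and without the KM12 parental xenograft.

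Promoters of 5 members are shown because the results below turn on them: HSPA6, a strictly inducible HSP70, CHORDC1, an HSP90 cochaperone, HSPA8 and HSP90AA1, which are abundant throughout, and HSPA1B, the classical inducible HSP70. Each is the run of 250 bases that ends just before a transcript start in RefSeq (GRCh38.p14), 5′ to 3′ on the gene's strand. Capitals mark heat shock element letters, either the 2-unit motifs GAANNTTC and TTCNNGAA or the 3-unit motifs GAANNTTCNNGAA and TTCNNGAANNTTC, each of which contains 2-unit matches. The 2-unit motifs read the same on both strands and the 3-unit motifs are each other's reverse complement, so both strands were covered. Where a gene had more than 1 start, the run with the most 3-unit and then 2-unit matches was chosen. This applied to HSP90AA1, whose other window, chr14:102139700-102139999, held 0 matches of either kind.
HSPA6, chr1:161524290-161524539, + strand: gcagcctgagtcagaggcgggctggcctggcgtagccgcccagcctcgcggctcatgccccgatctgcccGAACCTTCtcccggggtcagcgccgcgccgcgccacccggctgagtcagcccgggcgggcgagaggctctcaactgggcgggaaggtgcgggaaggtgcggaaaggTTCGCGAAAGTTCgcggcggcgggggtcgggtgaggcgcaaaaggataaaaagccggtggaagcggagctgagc
CHORDC1, chr11:90223050-90223299, - strand: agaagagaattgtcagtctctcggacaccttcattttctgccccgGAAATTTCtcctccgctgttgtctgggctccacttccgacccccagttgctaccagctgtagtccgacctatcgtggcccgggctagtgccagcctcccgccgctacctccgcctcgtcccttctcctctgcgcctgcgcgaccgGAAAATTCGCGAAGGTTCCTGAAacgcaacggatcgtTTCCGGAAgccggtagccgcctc
HSPA8, chr11:123062137-123062386, - strand: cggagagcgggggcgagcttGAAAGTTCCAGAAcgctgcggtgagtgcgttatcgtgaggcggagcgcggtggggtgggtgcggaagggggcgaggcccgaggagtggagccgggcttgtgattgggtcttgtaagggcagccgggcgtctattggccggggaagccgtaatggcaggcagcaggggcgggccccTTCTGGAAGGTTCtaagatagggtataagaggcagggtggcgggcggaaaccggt
HSP90AA1, chr14:102087045-102087294, - strand: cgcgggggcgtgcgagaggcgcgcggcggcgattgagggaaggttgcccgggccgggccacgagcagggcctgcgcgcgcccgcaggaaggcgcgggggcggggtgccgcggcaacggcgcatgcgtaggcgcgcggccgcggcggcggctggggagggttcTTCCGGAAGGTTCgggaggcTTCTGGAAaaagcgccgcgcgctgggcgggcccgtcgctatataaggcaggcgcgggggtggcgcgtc
HSPA1B, chr6:31827488-31827737, + strand: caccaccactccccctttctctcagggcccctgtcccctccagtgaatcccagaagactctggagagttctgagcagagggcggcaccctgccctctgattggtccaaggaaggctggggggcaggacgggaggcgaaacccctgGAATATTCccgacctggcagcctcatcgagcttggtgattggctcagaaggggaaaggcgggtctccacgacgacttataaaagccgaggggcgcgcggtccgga
CHORDC1 holds 3 overlapping 3-unit matches in its upstream run, HSPA8 holds 2, HSPA6 and HSP90AA1 hold 1 each, and HSPA1B holds a 2-unit match only.

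RefSeq windows of 300 bases, from 250 upstream to 50 downstream of a start, were available for 29 of the 33 members. A 3-unit match was present for 8 members, in 18.6% of their 43 windows, against 0.49% of 35116 promoter windows of the same length. A 2-unit match was present in 46.5% of the members' windows and 13.5% of all windows. The 8 members were HSPA6, HSPA8, HSPD1, HSP90AA1, HSP90AB1, DNAJA1, DNAJB6 and CHORDC1. In KM12 xenografts, described below, the median log2 ratio of knockout over parental was -0.97 for the 8 tested members with a 3-unit match and -1.22 for the 20 tested members with a window and no such match. These are letters in a window, and the absence of a match says nothing about binding of HSF1 elsewhere.

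Of the 33 members, 31 passed the filter of at least 1 CPM in at least 2 libraries. The small heat shock proteins HSPB8 and CRYAB did not, and neither reached more than 0.801 CPM in any library. Per kilobase of exon model, averaged over the 8 libraries, the most abundant members were the HSP90 gene HSP90AB1 at 755 CPM per kb, HSPA8 at 536, HSP90AA1 at 503 and the mitochondrial chaperonin HSPD1 at 313 CPM per kb. HSPE1, the cochaperonin that caps HSPD1, followed at 108 CPM per kb, then the small heat shock protein HSPB1 at 101 and DNAJA1, an HSP40, at 97.3 CPM per kb. At the low end HSPA6 averaged 3.59, HSPA2 0.544, HSPA1L 0.504 and HSPA1A 0.365 CPM per kb. The summed level of all 33 members was 7411 CPM in knockout and 13748 CPM in parental KM12 xenografts, and 14822 CPM in knockout and 15016 CPM in parental KM12 cultures. In LS174T it was 8431 CPM in the Dox (+) and 6749 CPM in the Dox (-) xenograft, and 17745 CPM in the Dox (+) and 16895 CPM in the Dox (-) culture. The members thus made up the least of the libraries in 3 of the 4 xenografts, while the KM12 parental xenograft lay near the cultures. In bulk RNA, fewer cells of a type and less RNA per cell cannot be told apart.

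**Figure D1:**
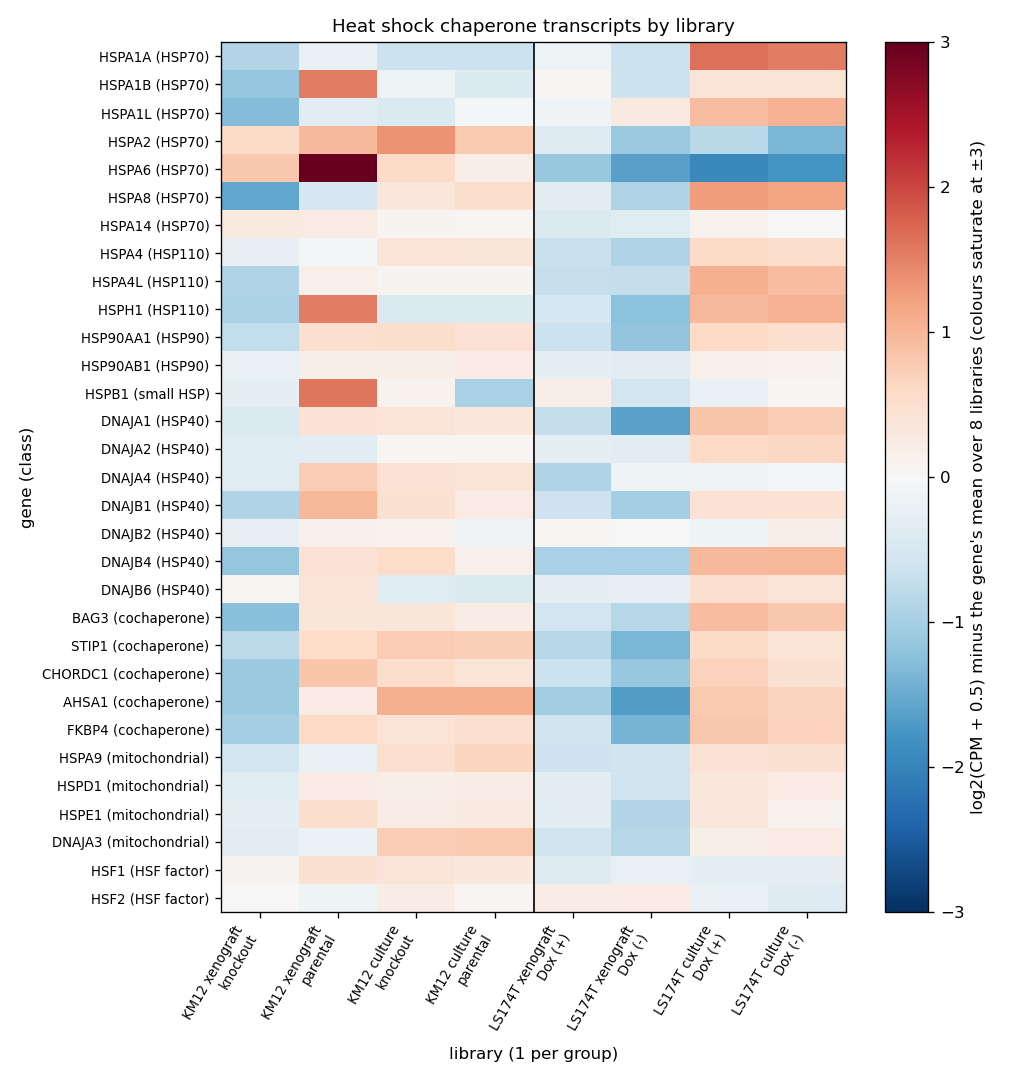
Each cell shows log2(CPM + 0.5) of a chaperone gene in a library minus that gene's mean over the 8 libraries, for the 31 members that passed the filter, with classes in brackets. The KM12 parental xenograft column is mostly red, with HSPA6 beyond the colour range, while the knockout KM12 xenograft and both LS174T xenografts are mostly blue.

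In KM12 xenografts the knockout library held less chaperone transcript than the parental one across classes. The members' median log2 ratio of knockout over parental was -1.07, with 29 of 31 members below 0, against a median of -0.02 over all 16070 tested genes. Past 2-fold, 17 of 31 members were lower and 0 were higher, where 7.13% of all tested genes were lower and 6.35% higher. In KM12 cultures the same comparison gave a median of 0.04. There only HSPB1 was past 2-fold, on the higher side, where 1.79% of all genes were higher and 1.26% lower. In LS174T xenografts Dox (+) over Dox (-) gave a median of 0.29, with 23 of 31 members above 0. The low-count genes HSPA6 and HSPA1A were past 2-fold higher and 0 members were lower, against 3.91% of all genes higher and 5.20% lower. LS174T cultures gave a median of 0.08 and no member past 2-fold in either direction, against 1.19% higher and 1.43% lower.

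**Figure D2:**
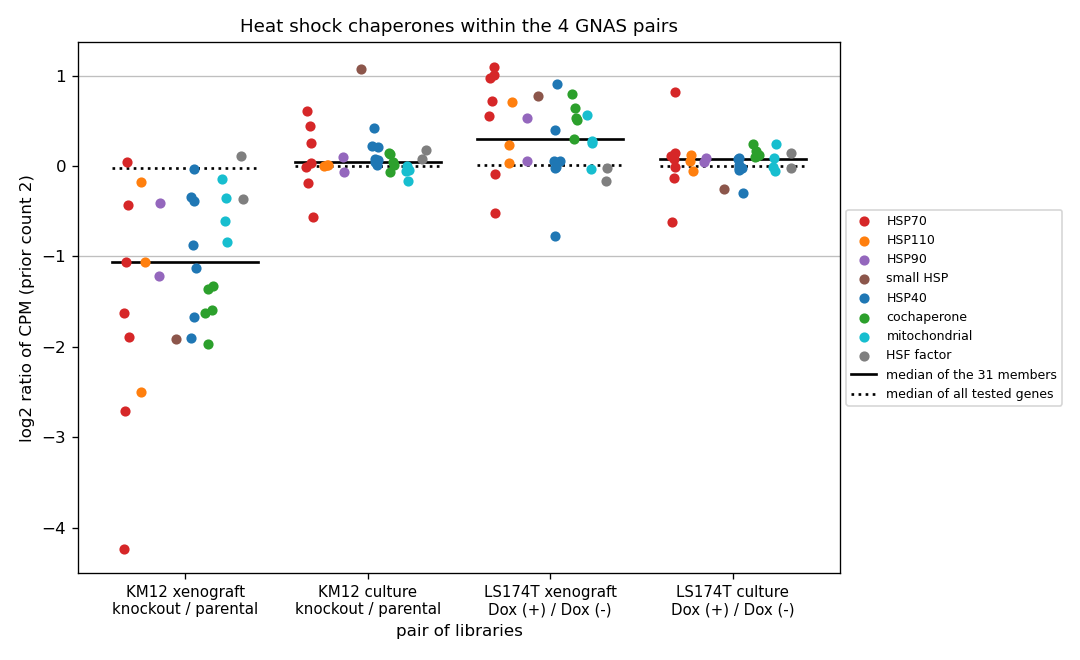
Points are log2 ratios of CPM (prior count 2) of the 31 members, coloured by class, within each pair of libraries that differs in GNAS state, and grey lines mark 2-fold. Black lines give the members' median, at -1.07, 0.04, 0.29 and 0.08 from left to right, and dotted lines the median of all tested genes.

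Among the inducible HSP70 genes, HSPA1B (ENSG00000204388.6, protein-coding, chromosome 6, 31827735 to 31830255 on GRCh38, + strand) encodes the main stress-induced HSP70. HSPA1B stood at 36.4 CPM in knockout and 238 CPM in parental KM12 xenografts, and at 73.2 CPM in knockout and 61.6 CPM in parental KM12 cultures. In LS174T HSPA1B stood at 85.2 CPM in the Dox (+) and 51.9 CPM in the Dox (-) xenograft, and at 107 CPM in the Dox (+) and 108 CPM in the Dox (-) culture. Its highest and lowest values of the 8 were thus both KM12 xenografts, and the knockout to parental ratio there was 0.153 (95% counting interval 0.141 to 0.165). HSPA1A encodes the same protein from a near-identical neighbour, and reads on the copies can be counted on either. HSPA1A stood at 0.0969 CPM in knockout and 0.458 CPM in parental KM12 xenografts, and at 0.205 CPM in knockout and 0.206 CPM in parental KM12 cultures. In LS174T HSPA1A stood at 0.484 CPM in the Dox (+) and 0.203 CPM in the Dox (-) xenograft, and at 2.94 CPM in the Dox (+) and 2.66 CPM in the Dox (-) culture. It made up between 0.192% and 2.68% of the counts of HSPA1A and HSPA1B together, so how the authors' counting split them is uncertain and the pair is best read together. HSPA1L, a testis-enriched HSP70 whose start lies close to that of HSPA1A on the other strand, ranged from 0.145 CPM in the knockout KM12 xenograft to 2.76 CPM in the Dox (-) LS174T culture. Its other values were 0.744 CPM in the parental xenograft, 0.672 CPM in knockout culture and 1.03 CPM in parental culture of KM12. For LS174T HSPA1L stood at 0.968 CPM in the Dox (+) and 1.42 CPM in the Dox (-) xenograft, and 2.51 CPM in the Dox (+) culture.

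HSPA6 (ENSG00000173110.7, protein-coding, chromosome 1, 161524540 to 161526910 on GRCh38, + strand) is an HSP70 that is nearly silent without stress and strictly inducible. HSPA6 stood at 3.10 CPM in knockout and 59.9 CPM in parental KM12 xenografts, and at 2.54 CPM in knockout and 1.85 CPM in parental KM12 cultures. In LS174T HSPA6 stood at 0.436 CPM in the Dox (+) and 0.162 CPM in the Dox (-) xenograft, and at 0.0331 CPM in the Dox (+) and 0.0919 CPM in the Dox (-) culture, from at most 9 counts a library. The parental KM12 xenograft, with 1047 counts, was far above the other 7 libraries, and the knockout to parental ratio of 0.0518 (0.0396 to 0.0666) was the lowest of any tested member in that pair. A 3-unit element starts at position -74 of its promoter, printed above. HSPA2, known for its role in sperm development, stood at 3.88 CPM in knockout and 5.26 CPM in parental KM12 xenografts, and at 7.02 CPM in knockout and 4.56 CPM in parental KM12 cultures. In LS174T HSPA2 stood at 1.74 CPM in the Dox (+) and 0.853 CPM in the Dox (-) xenograft, and at 1.19 CPM in the Dox (+) and 0.643 CPM in the Dox (-) culture.

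HSPA8 (ENSG00000109971.12, protein-coding, chromosome 11, 123057489 to 123063230 on GRCh38, - strand), the constitutive HSP70 called HSC70, folds newly made proteins and uncoats clathrin vesicles. HSPA8 stood at 722 CPM in knockout and 1505 CPM in parental KM12 xenografts, and at 2721 CPM in knockout and 3100 CPM in parental KM12 cultures. In LS174T HSPA8 stood at 1676 CPM in the Dox (+) and 1145 CPM in the Dox (-) xenograft, and at 5105 CPM in the Dox (+) and 4826 CPM in the Dox (-) culture. Its level was higher in the state called active in all 4 pairs. The knockout to parental ratio was 0.480 (0.470 to 0.489) in KM12 xenografts and 0.878 (0.870 to 0.886) in KM12 cultures. Dox (+) over Dox (-) was 1.46 (1.44 to 1.49) in LS174T xenografts and 1.06 (1.05 to 1.07) in LS174T cultures. HSPA14, a ribosome-associated member, lay between 32.8 CPM in the Dox (+) LS174T xenograft and 54.7 CPM in the knockout KM12 xenograft.

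Of the HSP110 exchange factors, HSPH1 was singled out after its values were seen. HSPH1 stood at 35.4 CPM in knockout and 200.1 CPM in parental KM12 xenografts, and at 51.1 CPM in knockout and 50.8 CPM in parental KM12 cultures. In LS174T HSPH1 stood at 47.7 CPM in the Dox (+) and 29.1 CPM in the Dox (-) xenograft, and at 136 CPM in the Dox (+) and 142 CPM in the Dox (-) culture. Its knockout to parental ratio in KM12 xenografts was 0.177 (0.163 to 0.192). The relatives HSPA4 and HSPA4L differed less in that pair. HSPA4 stood at 170.4 CPM in knockout and 193 CPM in parental KM12 xenografts, and at 264 CPM in knockout and 262 CPM in parental KM12 cultures. HSPA4L stood at 36.4 CPM in knockout and 76.3 CPM in parental KM12 xenografts, and at 73.0 CPM in knockout and 73.2 CPM in parental KM12 cultures. LS174T values of both showed the same high cultures and low xenografts as HSPH1. In LS174T HSPA4 stood at 128 CPM in the Dox (+) and 109 CPM in the Dox (-) xenograft, and at 302 CPM in the Dox (+) and 289 CPM in the Dox (-) culture. In LS174T HSPA4L stood at 42.8 CPM in the Dox (+) and 41.7 CPM in the Dox (-) xenograft, and at 144 CPM in the Dox (+) and 132 CPM in the Dox (-) culture.

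The 2 cytosolic HSP90 genes differed in how far they moved. HSP90AA1, the stress-responsive form, stood at 1434 CPM in knockout and 3333 CPM in parental KM12 xenografts, and at 3449 CPM in knockout and 3219 CPM in parental KM12 cultures. In LS174T HSP90AA1 stood at 1538 CPM in the Dox (+) and 1061 CPM in the Dox (-) xenograft, and at 3646 CPM in the Dox (+) and 3417 CPM in the Dox (-) culture. The parental KM12 xenograft lay within the range of the 4 cultures and the other 3 xenografts lay below it. HSP90AB1, the constitutive form, stood at 1895 CPM in knockout and 2518 CPM in parental KM12 xenografts, and at 2510 CPM in knockout and 2635 CPM in parental KM12 cultures. In LS174T HSP90AB1 stood at 1826 CPM in the Dox (+) and 1756 CPM in the Dox (-) xenograft, and at 2463 CPM in the Dox (+) and 2395 CPM in the Dox (-) culture. Its lowest and highest libraries were closer together than those of HSP90AA1, with the same 3 xenografts lowest.

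HSPB1 encodes HSP27, a small heat shock protein that keeps unfolding proteins soluble. HSPB1 stood at 117 CPM in knockout and 441 CPM in parental KM12 xenografts, and at 155 CPM in knockout and 73.4 CPM in parental KM12 cultures. In LS174T HSPB1 stood at 166 CPM in the Dox (+) and 97.1 CPM in the Dox (-) xenograft, and at 126 CPM in the Dox (+) and 150.5 CPM in the Dox (-) culture. The knockout thus lay below parental in KM12 xenografts, at a ratio of 0.266 (0.254 to 0.279), and above it in KM12 cultures, at 2.11 (2.00 to 2.22).

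The HSP40 genes supply clients to HSP70, and DNAJA1 and DNAJB1 are its main cytosolic partners. DNAJA1 stood at 173 CPM in knockout and 318 CPM in parental KM12 xenografts, and at 307 CPM in knockout and 291 CPM in parental KM12 cultures. In LS174T DNAJA1 stood at 143 CPM in the Dox (+) and 76.5 CPM in the Dox (-) xenograft, and at 418 CPM in the Dox (+) and 396 CPM in the Dox (-) culture. Its ratio was 0.543 (0.521 to 0.567) for knockout over parental in KM12 xenografts and 1.87 (1.77 to 1.99) for Dox (+) over Dox (-) in LS174T xenografts. DNAJB1, named after its values were seen, stood at 109 CPM in knockout and 406 CPM in parental KM12 xenografts and at 279 CPM in knockout and 239.7 CPM in parental KM12 cultures. DNAJB6, which suppresses aggregation of polyglutamine proteins, went the other way between environments in the 2 lines. DNAJB6 stood at 71.3 CPM in knockout and 90.6 CPM in parental KM12 xenografts, and at 53.4 CPM in knockout and 51.9 CPM in parental KM12 cultures. In LS174T DNAJB6 stood at 57.4 CPM in the Dox (+) and 58.0 CPM in the Dox (-) xenograft, and at 96.8 CPM in the Dox (+) and 90.8 CPM in the Dox (-) culture. Among the remaining HSP40 members, DNAJA2, DNAJA4, DNAJB2 and DNAJB4, the KM12 xenograft log2 ratios of knockout over parental ran from -1.67 for DNAJB4 to -0.03 for DNAJA2. DNAJA4 was the HSP40 gene with the lowest Dox (+) over Dox (-) ratio in LS174T xenografts, 0.585 (0.537 to 0.638).

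All 5 cochaperones were past 2-fold lower in the knockout KM12 xenograft. FKBP4, an immunophilin that carries steroid receptors on HSP90, stood at 119 CPM in knockout and 359.8 CPM in parental KM12 xenografts, and at 313 CPM in knockout and 329 CPM in parental KM12 cultures. In LS174T FKBP4 stood at 156 CPM in the Dox (+) and 89.5 CPM in the Dox (-) xenograft, and at 418 CPM in the Dox (+) and 384 CPM in the Dox (-) culture. AHSA1, the activator of the HSP90 ATPase, stood at 87.5 CPM in knockout and 225 CPM in parental KM12 xenografts, and at 401 CPM in knockout and 397 CPM in parental KM12 cultures. In LS174T AHSA1 stood at 92.2 CPM in the Dox (+) and 59.1 CPM in the Dox (-) xenograft, and at 329 CPM in the Dox (+) and 304 CPM in the Dox (-) culture. STIP1, which links HSP70 to HSP90, CHORDC1 and BAG3, an HSP70 exchange factor that directs clients to autophagy, had knockout to parental ratios of 0.400 (0.384 to 0.416), 0.255 (0.235 to 0.277) and 0.323 (0.293 to 0.355) in KM12 xenografts. The cochaperone median log2 ratio was -1.60 in that pair, 0.05 in KM12 cultures, 0.53 for Dox (+) over Dox (-) in LS174T xenografts and 0.12 in LS174T cultures.

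Mitochondrial members were separated less. HSPD1, the chaperonin HSP60, stood at 1009.9 CPM in knockout and 1537 CPM in parental KM12 xenografts, and at 1494 CPM in knockout and 1499 CPM in parental KM12 cultures. In LS174T HSPD1 stood at 1026 CPM in the Dox (+) and 859.6 CPM in the Dox (-) xenograft, and at 1645 CPM in the Dox (+) and 1545 CPM in the Dox (-) culture. HSPE1 shares a bidirectional promoter with HSPD1. HSPE1 stood at 166 CPM in knockout and 296 CPM in parental KM12 xenografts, and at 240.2 CPM in knockout and 247 CPM in parental KM12 cultures. In LS174T HSPE1 stood at 165 CPM in the Dox (+) and 112 CPM in the Dox (-) xenograft, and at 259 CPM in the Dox (+) and 219 CPM in the Dox (-) culture. For both genes the state with active GNAS was the higher in all 4 pairs. HSPA9, the mitochondrial HSP70 called mortalin, stood at 453 CPM in knockout and 578 CPM in parental KM12 xenografts, and at 927 CPM in knockout and 1039.9 CPM in parental KM12 cultures. In LS174T HSPA9 stood at 435 CPM in the Dox (+) and 446 CPM in the Dox (-) xenograft, and at 909 CPM in the Dox (+) and 913 CPM in the Dox (-) culture. Its 4 xenograft values lay below its 4 culture values. DNAJA3, the mitochondrial HSP40, stood at 104 CPM in knockout and 115 CPM in parental KM12 xenografts, and at 217 CPM in knockout and 226 CPM in parental KM12 cultures. In LS174T DNAJA3 stood at 86.2 CPM in the Dox (+) and 71.3 CPM in the Dox (-) xenograft, and at 147 CPM in the Dox (+) and 154 CPM in the Dox (-) culture.

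The heat shock factors were separated less in the KM12 xenograft pair than most members. HSF1 stood at 155 CPM in knockout and 199.5 CPM in parental KM12 xenografts, and at 190.5 CPM in knockout and 181 CPM in parental KM12 cultures. In LS174T HSF1 stood at 111 CPM in the Dox (+) and 124 CPM in the Dox (-) xenograft, and at 118 CPM in the Dox (+) and 119.6 CPM in the Dox (-) culture. HSF2, a related factor that can form mixed trimers with HSF1, lay between 12.4 CPM in the Dox (-) LS174T culture and 19.3 CPM in the Dox (-) LS174T xenograft. The knockout to parental ratio of HSF1 in KM12 xenografts was 0.776 (0.740 to 0.815), and its value was the highest of the 4 xenografts in the parental library. HSF1 is regulated largely as a protein, which transcript counts do not measure.

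**Figure D3:**
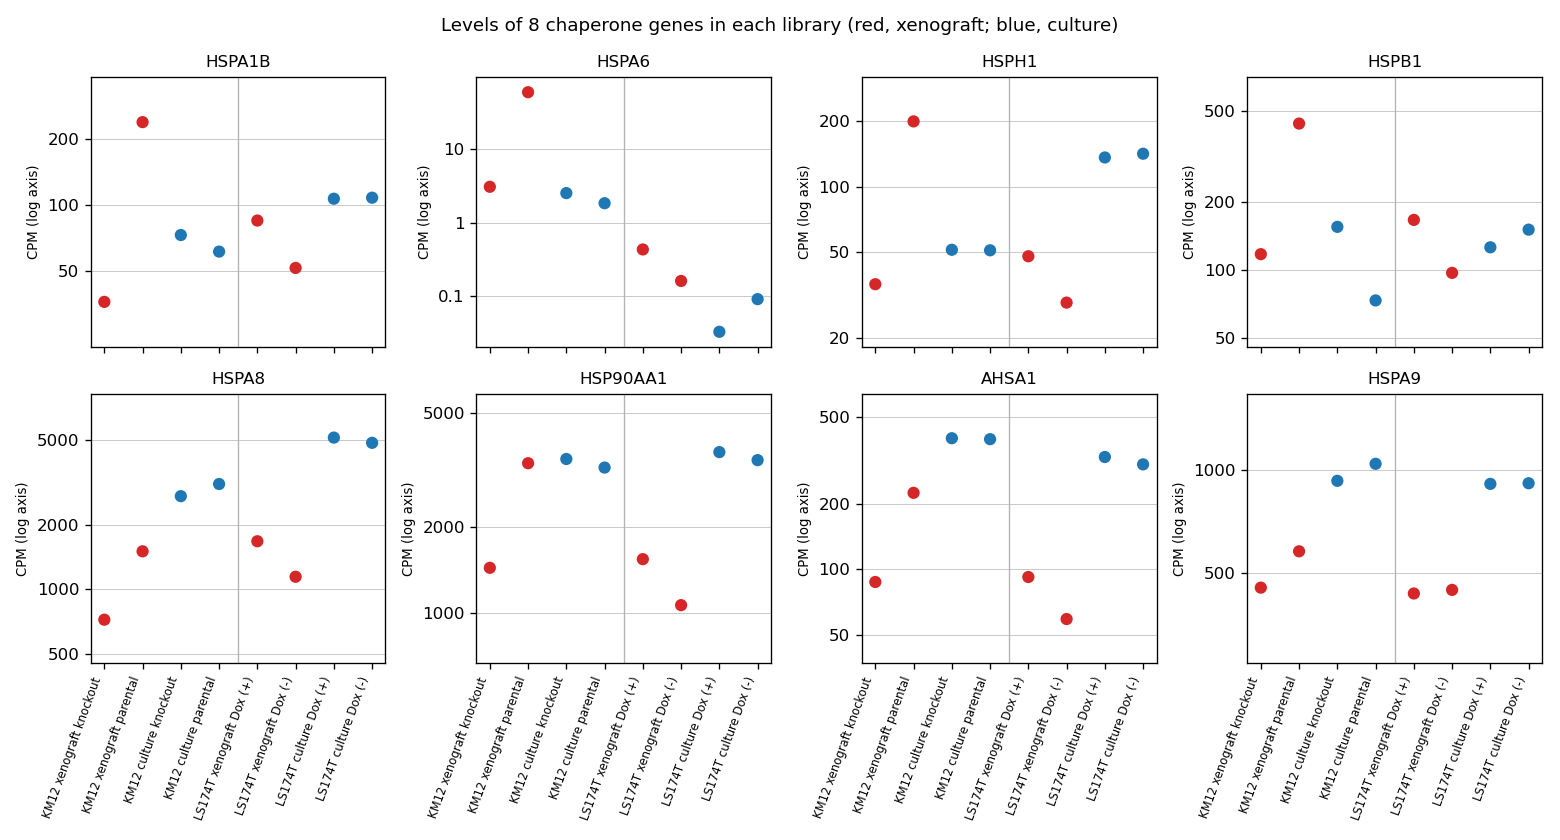
CPM of 8 chaperone genes in each library on log axes, xenografts in red and cultures in blue, KM12 left and LS174T right of the vertical line. In the top row the KM12 parental xenograft is the highest library, at 238 CPM for HSPA1B, 59.9 for HSPA6, 200.1 for HSPH1 and 441 for HSPB1, and in the bottom row xenografts lie below cultures except for HSP90AA1 in that library.

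Tested across pairs with edgeR's quasi-likelihood test and Benjamini-Hochberg adjustment over all tested genes, no chaperone passed for GNAS. The error in these tests is the disagreement between pairs that differ in line or environment, since no culture or tumor was repeated. For KM12 knockout minus parental over both environments, 28 of 31 members were below 0 and their median log2 difference was -0.52, but 0 passed at an adjusted p below 0.05, as did 0.0124% of all tested genes. At an unadjusted p below 0.05, 1 member was lower, HSPA8 (log2 difference -0.62 ± 0.23, SE, adjusted p = 0.860), against 2.28% of all tested genes. DESeq2 and limma-voom also called 0 members, where DESeq2 called 0.304% of all genes higher and 0.119% lower and limma-voom called 0. Without the KM12 xenograft pair the median was 0.04. For LS174T Dox (+) minus Dox (-), 25 of 31 members were above 0 with a median of 0.19, and edgeR called 0 members and 0 genes. No member and 4.47% of all genes had an unadjusted p below 0.05. Neither DESeq2 nor limma-voom called a member, where DESeq2 called 0.00689% of all genes higher and 0.0413% lower and limma-voom called 0. The member with the smallest p was HSPA2 (0.96 ± 0.44, SE, adjusted p = 0.936).

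For the states with active GNAS minus their opposites over all 4 pairs, the median was 0.33 and 28 of 31 members were above 0. edgeR called 0 members, as 0 of all tested genes. The other tools also called 0 members, where DESeq2 called 0.0589% of all genes higher and 0.331% lower and limma-voom called 0. Without a filter on low counts edgeR called 6 members higher, with 0.186% of all genes. At an unadjusted p below 0.05, 2 members were higher, against 2.08% of all genes. These were HSPE1 (0.42 ± 0.14, SE) and HSPA8 (0.47 ± 0.16, SE), both at an adjusted p of 0.775. DNAJA1 (0.45 ± 0.19) and FKBP4 (0.64 ± 0.27) came next. Without the KM12 xenograft pair the median was 0.08.

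Counted by direction, 23 of 31 members were higher in the active state in both xenograft pairs, against 27.8% of all tested genes. In both culture pairs 7 of 31 members were higher in the active state, against 27.3% of all genes, and 9 were lower, against 26.7%. In both xenograft pairs 2 members, HSPA14 and HSF2, were lower in the active state, against 23.9%. In all 4 pairs 7 members were higher in the active state, against 9.17% of all genes. Across the 2 xenograft pairs the median log2 difference of active minus opposite states was 0.70, and 16 members had an unadjusted p below 0.05, all higher, where 6.08% of all genes did. Across the 2 culture pairs the median was 0.02 and 0 members had an unadjusted p below 0.05, against 1.21% of all genes. edgeR called 0 members in either environment, as 0 of all tested genes. Whether the GNAS difference depended on environment was tested as the difference between these effects, and edgeR again called 0 members and 0 genes. At an unadjusted p below 0.05, 13 of 31 members had a larger active-state excess in xenografts, against 2.35% of all tested genes, and 0 had a smaller one, against 2.69%. The 4 with the smallest p were DNAJA1 (0.89 ± 0.15, SE), HSPA6 (4.30 ± 0.88), HSPB1 (2.01 ± 0.46) and FKBP4 (1.10 ± 0.28), each with an adjusted p of 0.891. DESeq2 called 2 members higher, HSPB1 and DNAJA1, with 0.0915% of all genes, and limma-voom called 0 members, as 0 of all genes. Without the KM12 xenograft pair, which leaves only the LS174T tumors for the xenograft effect and 1 residual degree of freedom, the median was 0.31, against 0.67 with it. That fit called 10 members higher, with 3.94% of all genes, and 1 lower, with 5.61%.

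Between environments the chaperones were lower in xenografts than in culture in 3 of the 4 pairs. For xenograft over culture the median log2 ratio was -0.83 in KM12 knockout, 0.13 in KM12 parental, -1.06 in LS174T Dox (+) and -1.06 in LS174T Dox (-). Past 2-fold, 14 of 31 members were lower in KM12 knockout against 9.52% of all tested genes, 1 in KM12 parental against 8.36%, 16 in LS174T Dox (+) against 11% and 17 in LS174T Dox (-) against 13.9%. Past 2-fold higher there were 0 members in KM12 knockout against 14.7%, 4 in KM12 parental against 16.6%, 1 in LS174T Dox (+) against 19.8%, and 0 in LS174T Dox (-) against 21.3%. The 4 in KM12 parental were HSPA6, HSPB1, HSPH1 and HSPA1B, with xenograft to culture ratios of 32.3 (24.6 to 43.3), 6.00 (5.72 to 6.30), 3.94 (3.71 to 4.19) and 3.87 (3.66 to 4.10). In the 3 pairs other than KM12 parental, 23 of 31 members were lower in each, against 29.8% of all genes, and 11 were past 2-fold lower in each, against 2.55%. The KM12 parental pair, where 21 of 31 members were above 0, was set aside after its values were seen. An excess of members over all genes in the other 3 pairs is thus partly set by that choice. In all 4 pairs 9 members were lower in the xenograft, against 25.1% of all genes, and 1, HSPA6, was higher, against 25%. In the KM12 parental xenograft 25 of 31 members had their highest value of the 4 xenografts, against 29.6% of all genes.

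**Figure D4:**
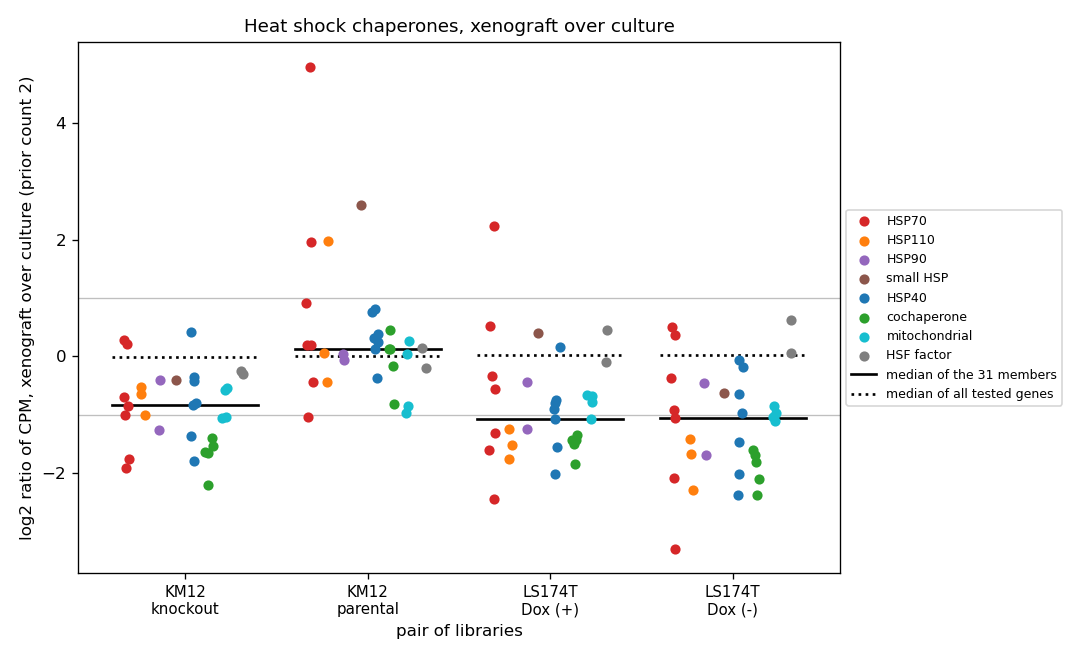
Points are log2 ratios of CPM in xenograft over culture (prior count 2) for the 31 members in each line and GNAS state, and grey lines mark 2-fold. The members' medians (black) are -0.83, 0.13, -1.06 and -1.06 from left to right, while the medians of all tested genes (dotted) lie near 0.

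Tested over the 4 pairs, 7 of 31 members fell in xenografts and 0 rose, where edgeR called 13.5% of all tested genes lower and 12.6% higher. The mitochondrial pair DNAJA3 (-0.98 ± 0.12, SE, adjusted p = 0.0102) and HSPA9 (-0.99 ± 0.14, adjusted p = 0.0118) fell, as did HSPA8 (-1.66 ± 0.23, adjusted p = 0.0119) and AHSA1 (-1.81 ± 0.28, adjusted p = 0.0139). HSPA4 (-0.93 ± 0.20, adjusted p = 0.0268), the HSP40 DNAJA2 (-0.67 ± 0.16, adjusted p = 0.0311) and STIP1 (-1.24 ± 0.29, adjusted p = 0.0317) completed the group. DNAJA2 stood at 72.6 CPM in knockout and 74.1 CPM in parental xenografts of KM12, and at 96.8 CPM in knockout and 96.1 CPM in parental KM12 cultures. In LS174T DNAJA2 stood at 75.4 CPM in the Dox (+) and 72.8 CPM in the Dox (-) xenograft, and at 140.4 CPM in the Dox (+) and 143 CPM in the Dox (-) culture. All 4 xenograft values of DNAJA2 lay below its 4 culture values. STIP1 stood at 183 CPM in knockout and 457 CPM in parental KM12 xenografts, and at 529.9 CPM in knockout and 513 CPM in parental KM12 cultures. In LS174T STIP1 stood at 174 CPM in the Dox (+) and 119.9 CPM in the Dox (-) xenograft, and at 468 CPM in the Dox (+) and 418 CPM in the Dox (-) culture, so that the parental KM12 xenograft overlapped the cultures. BAG3 (adjusted p = 0.0506) and HSP90AA1 (-1.05 ± 0.32, adjusted p = 0.0573) did not pass. The number that fell depended on the pair left out, and so did the share of all genes called lower. It was 17 without the KM12 parental pair (8.61% of all genes), 4 without the KM12 knockout pair (6.48%), 1 without the LS174T Dox (-) pair (1.96%) and 0 without the LS174T Dox (+) pair (0.0456%). DESeq2 called 16 members lower, with 19.1% of all genes, and limma-voom 11, with 15.7%, and each called HSPA6 higher. Scaling by total counts raised the median of all genes by 0.26 on the log2 scale and took the share of calls that were higher to 77.1%, against 48.3% with TMM. Under it 4 members still fell, with 6.16% of all genes, and HSPA4, DNAJA2 and STIP1 did not pass.

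Fitted within each line, on 4 libraries with 1 residual degree of freedom, the counts are not comparable between lines, since more genes of every kind were called in LS174T. Within KM12, 3 of 29 members tested fell, HSPA8, HSPA9 and DNAJA3, where 10.9% of all genes did, and DNAJB6 rose, where 11.4% did. The members' median log2 difference there was -0.28. Within LS174T, 23 of 30 members tested fell, where 27.8% of all genes did, and HSF2 rose (0.57 on the log2 scale), where 29.5% did. The median there was -1.08. The difference of the environment effects, KM12 minus LS174T, passed for 2 members, where 5.94% of all genes passed in that direction and 7.74% in the other. DNAJB6 (1.31 ± 0.22, SE, adjusted p = 0.00903) had a xenograft to culture ratio of 1.33 (1.24 to 1.43) in KM12 knockout and 1.75 (1.63 to 1.88) in KM12 parental, against 0.593 (0.554 to 0.635) in LS174T Dox (+) and 0.639 (0.599 to 0.681) in LS174T Dox (-). HSPA4 (0.79 ± 0.20, adjusted p = 0.0381) was lower in xenografts in all 4 pairs and by more in LS174T. DNAJA1 (1.61 ± 0.42, adjusted p = 0.0602) and HSPA4L (1.23 ± 0.35, adjusted p = 0.0611) did not pass. Without the KM12 parental pair the members' median line difference was 0.02, against 0.68 with it. DNAJB6 passed without that pair, and HSPA4 did not (0.70, adjusted p = 0.0814). Hypoxia genes were highest in the LS174T xenografts, as given above, and their part in these values was not tested.

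Between lines, with KM12 parental set beside LS174T Dox (+) and KM12 knockout beside LS174T Dox (-), 4 members were higher in KM12 and 0 lower, where 14.8% of all tested genes were higher and 16.7% lower. HSPA6 was higher by 5.59 ± 0.59 on the log2 scale (SE, adjusted p = 0.00252), HSPA2 by 2.27 ± 0.40 (adjusted p = 0.0115), DNAJA3 by 0.52 ± 0.11 (adjusted p = 0.0177) and HSF1 by 0.61 ± 0.13 (adjusted p = 0.0197). The KM12 values of HSPA6, HSPA2 and HSF1 all lay above those of LS174T. HSPA6 passed the filter only through its KM12 libraries, since its LS174T values were at most 0.436 CPM. It was thus tested only because it was higher in KM12, and its call gives no further support. The calls of DNAJA3 and HSF1 were lost when either culture pair was left out, and that of HSF1 also without the pair of KM12 parental and LS174T Dox (+) xenografts. HSPA8 (-0.59 ± 0.18, adjusted p = 0.057) did not pass.

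Related genes outside the list moved less in the KM12 xenograft pair. For knockout over parental there, the median log2 ratio was -0.35 for 8 subunits of the CCT chaperonin, which folds actin and tubulin, -0.22 for 24 other HSP70 and HSP90 cochaperones, -0.14 for 12 other mitochondrial chaperones and proteases, -0.28 for 14 chaperones of the endoplasmic reticulum and -0.03 for 10 proteasome subunits. For 11 other heat-inducible genes it was -0.82, with 4 past 2-fold lower and 1 higher. In the xenograft minus culture test, edgeR called 13.5% of all tested genes lower and 12.6% higher, and the counts of these small lists stand beside those shares. It called 5 of 8 CCT subunits lower, among them CCT5 (-1.02 ± 0.14, adjusted p = 0.0119). Of 24 other cochaperones it called 8 lower, among them PPID (-1.43 ± 0.23, adjusted p = 0.0142), with 0 higher in either list. It called 3 of 14 endoplasmic reticulum chaperones lower, with HYOU1 farthest (-1.29 ± 0.21, adjusted p = 0.015), 2 of 11 other heat-inducible genes, 0 of 10 proteasome subunits, and 3 of 12 other mitochondrial chaperones and proteases, with 1 proteasome subunit and the protease SPG7 higher. Medians in that test were -0.66 for CCT, -0.41 for the other cochaperones, -0.51 for the endoplasmic reticulum, -0.41 for other heat-inducible genes and -0.10 for other mitochondrial genes, against -0.81 for the members and 0.02 for all genes. For GNAS none of these lists had a gene past the adjusted test over the 4 pairs, where 0 of all tested genes passed.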

How the data were processed

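Poly(A) RNA of 8 libraries was sequenced after oligo(dT) selection, per the labels' protocols, which name no step that marks strand. The authors deposited unnormalized counts of reads by gene, made with STAR 2.7.2b and HTSeq 0.11.0 against hg38 and, for mouse, GRCm39, per the submitters' processing notes. How mouse reads were removed from xenograft libraries is not given in the sources used here. Total counts were 15924846 to 37735085 a library, and genes of few counts are limited by them.

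Tests covered the 16070 of 60483 genes that reached 1 CPM in 2 or more libraries, after TMM scaling, with R 4.3.3, edgeR 4.0.16 (quasi-likelihood), limma 3.58.1 and DESeq2 1.42.0, and Benjamini-Hochberg adjustment over all of them at 0.05. Each of the 8 groups had 1 library, so libraries were compared in 4 pairs kept as blocks, with 1 to 3 residual degrees of freedom. The SE of a log2 difference is its size divided by the square root of the F statistic. Nothing states whether libraries came from separate cultures or mice, so p-values measure the spread between these pairs. Ratios of single pairs carry exact 95% counting intervals, and log2 ratios use a prior count of 2. The scripts were checked on simulated data. Figures were drawn with Python 3.11.15 and matplotlib 3.10.9.

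Values in every library are given for HSPA1A, HSPA1B, HSPA8, HSP90AA1, HSP90AB1, HSPD1, HSPB1, HSF1 and the 4 members of smallest unadjusted p in each of the 7 planned comparisons, which do not include the GNAS effect within 1 environment, and at most 3 genes of another list with the largest difference. HSPH1, DNAJB1, BAG3, CHORDC1, STIP1, DNAJA2, DNAJA4, DNAJB2, DNAJB4, HSPA14 and HSF2 were named after their values were seen. The members and lists were chosen with earlier results of these data known. Promoters are from RefSeq (GRCh38.p14), and gene coordinates from the annotation of the same build. Alternatives were other scalings, no filter, other tools, other prior counts and folds, and leaving out each pair.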

Additional observations from a re-analysis of the deposited data

Results flagged for a closer look

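The environment effect, xenograft minus culture, differed between KM12 and LS174T by the test of the difference itself for 2 of 31 chaperones. In that direction 5.94% of all tested genes passed, and 7.74% passed in the other, so the count lies near the share of all genes. For DNAJB6 the log2 difference was higher in KM12 by 1.31 (SE 0.22, edgeR adjusted p = 0.00903), and its xenograft values lay above its culture values in both KM12 pairs and below them in both LS174T pairs. For HSPA4 the log2 difference was higher in KM12 by 0.79 (SE 0.20, edgeR adjusted p = 0.0381), with xenograft below culture in all 4 pairs. HSPA4 did not pass without the KM12 parental pair, as given above. The fibroblast markers COL3A1, COL1A1 and LUM were high in the KM12 parental xenograft, and the hypoxia genes in the LS174T xenografts. Their part was not tested.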

How the results depend on the processing

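The labels give no replicate numbers by which libraries could be paired. The pairs kept as blocks in the tests come from line, environment and GNAS state instead. Each group rests on 1 tumor or culture, low-count members such as HSPA6 in LS174T are limited by depth, and xenografts were sequenced less deeply than cultures. Leave-outs of the KM12 xenograft pair from the knockout and environment-dependence tests, and of the KM12 parental pair from the line difference, were chosen after seeing the data. So was the count by direction over the 3 environment pairs other than KM12 parental. Without a filter on low counts, members called were 2 lower for the KM12 knockout (0.33% of all genes) and 6 higher for GNAS over 4 pairs (0.186%). That fit also called 10 higher for the dependence of GNAS on environment (0.21%), 9 lower in xenografts (7.3%) and 9 higher for the line difference in environment (3.98%). For the line effect it called 5 higher (6.05%) and 3 lower (7.93%) in KM12. DESeq2 called 2 higher for the dependence of GNAS on environment (0.0915%), and 1 higher (19.8%) and 16 lower (19.1%) in xenografts. It called 4 higher for the line difference in environment (7.82%), and 5 higher (19.3%) and 3 lower (21.7%) for the line effect. limma-voom called 1 higher (16.6%) and 11 lower (15.7%) in xenografts, and 3 higher for the line difference in environment (7.16%). For the line effect limma-voom called 5 higher (16.5%) and 3 lower (18.2%). For the environment, total-count scaling called 4 lower (6.16%), KM12 alone 1 higher (11.4%) and 3 lower (10.9%), LS174T alone 1 higher (29.5%) and 23 lower (27.8%), and leaving out each pair between 0 and 17 lower (0.0456% to 8.61%). Leaving out each pair called between 2 and 4 higher (6.89% to 12.6%) and between 0 and 4 lower (10.3% to 14.9%) for the line effect. Without the KM12 xenograft pair the dependence of GNAS on environment gave 10 higher (3.94%) and 1 lower (5.61%). Of the single pairs past the fold, DESeq2 size factors gave 1 higher for LS174T xenografts, total counts gave 7 higher and 0 lower for KM12 parental and 9 lower for KM12 knockout between environments, and a prior count of 0.5 gave 1 lower for LS174T cultures. With a 1.5-fold threshold, KM12 cultures gave 2 higher, LS174T xenografts 9 higher and 1 lower, and LS174T cultures 1 higher and 1 lower. Between environments that threshold gave 7 higher and 4 lower for KM12 parental, and 1 higher for LS174T Dox (-). Shares of all tested genes are not given for these changed settings of the single pairs. A lower threshold or another scaling moves all genes, so these counts cannot be read as an excess of members. Among the values that changed sign was the KM12 knockout median, 0.044 without the KM12 xenograft pair. In the KM12 culture pair alone 21 of 31 members were above 0, against 3 in the fit over both environments. The GNAS median over 4 pairs (0.33) was -0.0059 in a fit on the 4 culture libraries alone. The culture term of the fit on all 8 libraries gave 0.02. DNAJA4 in the dependence of GNAS on environment went to -0.72 without the KM12 xenograft pair. DNAJB6 between environments went to 0.66 (edgeR adjusted p = 0.0458) in KM12 alone. This list is not complete. The fits with fewer libraries have fewer residual degrees of freedom, and other causes were not tested.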

Other observations

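Immediate early genes, which respond quickly to stimulation, differed between the lines in the xenograft minus culture test. There edgeR called 6 of 8 lower in KM12 than in LS174T, against 7.74% of all tested genes. Their median log2 difference was -1.50 for KM12 minus LS174T. Chaperones of the endoplasmic reticulum differed in the other direction, with 9 of 14 higher in KM12, against 5.94% of all tested genes. Their median was 0.94, led by CRELD2 (2.10), PDIA4 (1.79) and CALR (1.57). Among proteasome subunits 5 of 10 were higher in KM12, against the same 5.94%, with a median of 0.85. Hypoxia genes rose in xenografts, 8 of 9 tested against 12.6% of all genes, with a median log2 difference of 3.28 for xenograft minus culture. Transcripts of the mitochondrial genome fell, 5 of 9 against 13.5% of all genes, with a median of -0.80.

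SERPINH1, a collagen chaperone of the endoplasmic reticulum that is also heat-inducible, stood at 81.5 CPM in knockout and 289 CPM in parental KM12 xenografts, and at 233 CPM in knockout and 209 CPM in parental KM12 cultures. In LS174T SERPINH1 stood at 92.6 CPM in the Dox (+) and 60.5 CPM in the Dox (-) xenograft, and at 154 CPM in the Dox (+) and 156 CPM in the Dox (-) culture.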
